A study of Homo sapiens with 6 samples.

Results

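The human mitochondrial genome is read here as 37 transcripts: 13 mRNAs, 2 rRNAs and 22 tRNAs. They are the rows of a deposited count table whose symbol starts with MT-, 37 of 56638 rows in all. The counts come from poly(A) RNA of MOLM-13, an established human cell line grown from an acute monocytic leukaemia, in which KMT2A is fused to MLLT3. The UC-764864 libraries were made from cells given 2 µM of this compound and collected 24 h later, and the DMSO libraries from cells given the solvent and collected at the same time. The series title calls the compound an inhibitor of UBE2N, an enzyme that builds signalling ubiquitin chains, and the design text writes its name as UC-744864. All cells were MOLM-13, and whether replicate libraries were grown as separate cultures is not stated in the labels. P-values therefore measure the spread between these libraries, which may be technical. The comparison asks which mitochondrial transcripts differed between the treatments.

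The table names libraries by column. UDI0051, UDI0052 and UDI0053 are UC-764864 libraries, and UDI0054, UDI0055 and UDI0056 are DMSO libraries. UDI0055 holds 0 in all 37 rows, inside an unbroken run of 3684 rows at 0 in which 369 rows have at least 50 counts in each of the other libraries. Its zeros were read as missing values, so 3 UC-764864 libraries were compared with 2 DMSO libraries. These held 17073654 to 25014437 counts after UC-764864 and 16136156 to 23879122 after DMSO. A second principal component with 19.1% of the variance set UDI0052 at one end, with UDI0056 on the same side. The most GC-rich genes took 18.2% of counts in UDI0052 and 17.6% in UDI0056, less than the 20.8% to 22.3% of the other 3 libraries. Of 14186 rows tested, 1401 were higher after UC-764864 and 1974 lower (edgeR quasi-likelihood test, adjusted p under 0.05), so that 41.5% of calls were rises. This share was 30.5% with library size as the only scaling and 62.0% with the GC trend of each library removed. The counts were 456 and 1182 without UDI0051, 598 and 1106 without UDI0053, and 339 and 927 without UDI0056. Levels are given as CPM, counts scaled to a common library size. Markers of the myeloid lineage summed to 6231, 6746 and 5663 CPM after UC-764864, against 3713 and 3955 CPM after DMSO, with LYZ, the lysozyme gene, making up most of it. Of 9 tested members of that list LYZ alone rose (0.86 ± 0.11, edgeR adjusted p = 0.000614), while the integrin gene ITGAM (−1.06) and the growth factor receptor gene CSF1R (−0.60) fell (adjusted p = 0.00134 and 0.0116), and the median was −0.15. Lymphoid markers summed to 1.14 to 1.56 CPM after UC-764864, against 2.01 to 2.40 CPM after DMSO, with the B cell marker MS4A1 at 0 in all 5 libraries. Erythroid and megakaryocyte markers summed to at most 0.652 CPM and stromal and epithelial markers to at most 1.10 CPM in any library.

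The mitochondrial genome is a small circle with genes on both strands and hardly any sequence between them. Each strand is transcribed into long precursors, and most mRNAs and rRNAs are flanked by tRNAs that RNase P and the nuclease ELAC2 cut out, which frees the RNAs on either side. Most mRNAs then receive a short poly(A) tail from MTPAP, and the LRPPRC-SLIRP complex protects them from decay. The proteins they encode are core subunits of respiratory complexes I, III and IV and of the ATP synthase, complex V, and the rRNAs and tRNAs serve the mitochondrial ribosome that makes them.

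Some members that changed, and an overlap that touches how reads were counted, are shown as sequence, 5′ to 3′, from the GENCODE 29 transcripts (GRCh38), matched by symbol. MT-TM, a tRNA gene with the largest rise of any member, is not shown. MT-ATP8 had the largest rise of the mRNAs. Its last 46 of 207 bases, in capitals, are also the start of MT-ATP6, so a read there belongs to both genes. MT-ND4L shares its last 7 bases, in capitals in the stretch of 60 shown, with MT-ND4. MT-TT and MT-TP, the tRNA genes for threonine and proline, had the falls, and their anticodons are in capitals. How reads in an overlap were assigned is not given in the sources used here.
MT-ATP8: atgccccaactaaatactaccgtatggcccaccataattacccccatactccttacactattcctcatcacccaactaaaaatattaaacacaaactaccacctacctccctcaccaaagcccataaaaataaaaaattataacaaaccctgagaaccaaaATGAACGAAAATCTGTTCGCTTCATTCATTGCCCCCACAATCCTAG
MT-ND4L: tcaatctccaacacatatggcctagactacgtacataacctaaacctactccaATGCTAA
MT-TT: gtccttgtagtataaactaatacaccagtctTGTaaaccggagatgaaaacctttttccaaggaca
MT-TP: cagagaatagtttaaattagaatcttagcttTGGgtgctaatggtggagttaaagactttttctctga

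In the libraries compared, messenger RNAs of the mitochondrial genome rose after UC-764864, and its rRNAs did not pass the test in either direction. Of the 13 mRNAs, 11 were higher and 0 lower, where 9.88% of all tested rows were higher and 13.9% lower. Their median log2 fold change was 0.54, against −0.0089 over all tested rows. Of the 2 rRNAs, 0 were called in either direction by edgeR, by DESeq2 or at an unadjusted p under 0.05. Of the 22 tRNA rows, 12 passed the filter on low counts, 2 of these were higher and 2 lower. The groups did not overlap for 11 of the 13 mRNAs, all with UC-764864 above DMSO, where 52.5% of all tested rows had groups apart and 26.3% had UC-764864 above. The DMSO library left out, UDI0055, lacks these rows. Its nuclear copies of mitochondrial genes summed to 1154 CPM over shared rows, nearly all from the rows MTATP6P1 and MTND2P28. UC-764864 libraries had 683 to 803 CPM there, and UDI0054 and UDI0056 536 and 623 CPM. MTATP6P1, a copy of MT-ATP6 with 98.5% identity, had 879 CPM in UDI0055, against 549 to 674 CPM in the UC-764864 libraries. With UDI0055 included, its log2 fold change was 0.07 (edgeR adjusted p = 0.869). Whether the mitochondrial mRNAs of UDI0055 were also high cannot be seen. Whether their rise would hold with this DMSO library was therefore not tested.

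**Figure D1:**
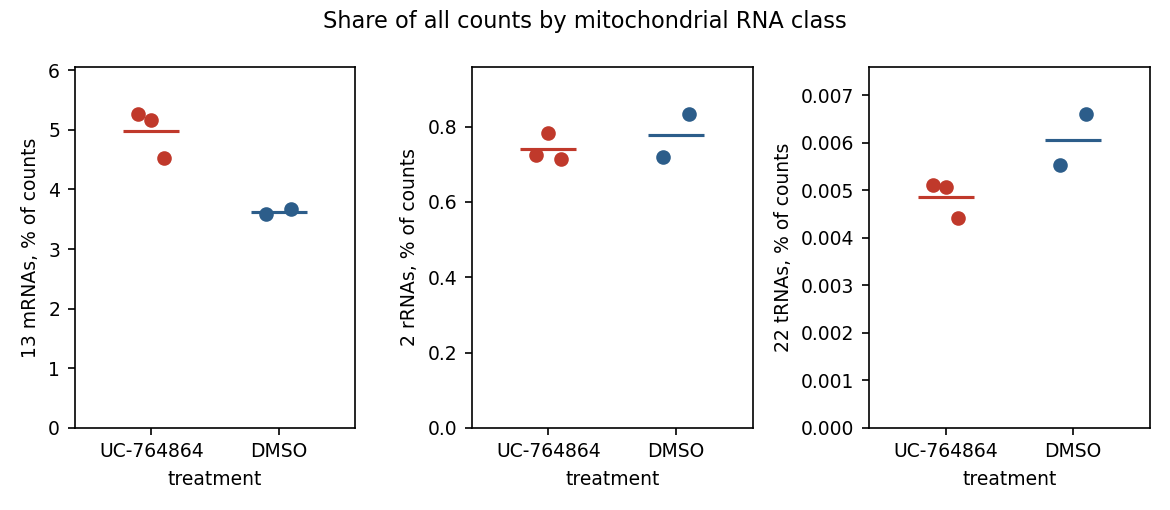
Share of all counts held by the mitochondrial mRNAs, rRNAs and tRNAs in percent, one point per library and a line at the mean, UC-764864 left and DMSO right. The mRNA share lies between 4.52% and 5.26% in the UC-764864 libraries, above the 3.59% and 3.67% of the DMSO libraries, while the rRNA shares overlap.

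Mitochondrial rows took 5.99%, 5.96% and 5.24% of all counts in UDI0051, UDI0052 and UDI0053 after UC-764864, against 4.31% and 4.51% in UDI0054 and UDI0056 after DMSO. The 95% Wilson interval of each share was at most 0.0225 percentage points wide, counting error only. Every UC-764864 library lay above every DMSO library, and the means were 5.73% ± 0.427 (SD, n = 3) and 4.41% ± 0.137 (SD, n = 2). The exact two-sided permutation test gave p = 0.2, the smallest value that 3 against 2 libraries allow, and an adjusted p of 0.257 over the 18 measures tested this way. The share was 1.32 times as high in UDI0052 as in UDI0056, and 1.30 times as high in UDI0051 and UDI0053 as in UDI0054. The 13 mRNAs alone held 4.98% ± 0.405 of counts after UC-764864 and 3.63% ± 0.0565 after DMSO. The 2 rRNAs held 0.740% ± 0.0385 and 0.777% ± 0.0796, and their groups overlapped. There were 7.27, 6.59 and 6.34 mRNA counts for each rRNA count after UC-764864, against 4.98 and 4.40 after DMSO, and the groups did not overlap (exact permutation p = 0.2). The counts come from poly(A) RNA, so this is a ratio of captured RNA, which may differ from the ratio in the cells. In a bulk sample, fewer cells of a type and less RNA per cell cannot be told apart. Each share is relative to all counts of the same library, most of them nuclear.

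**Figure D2:**
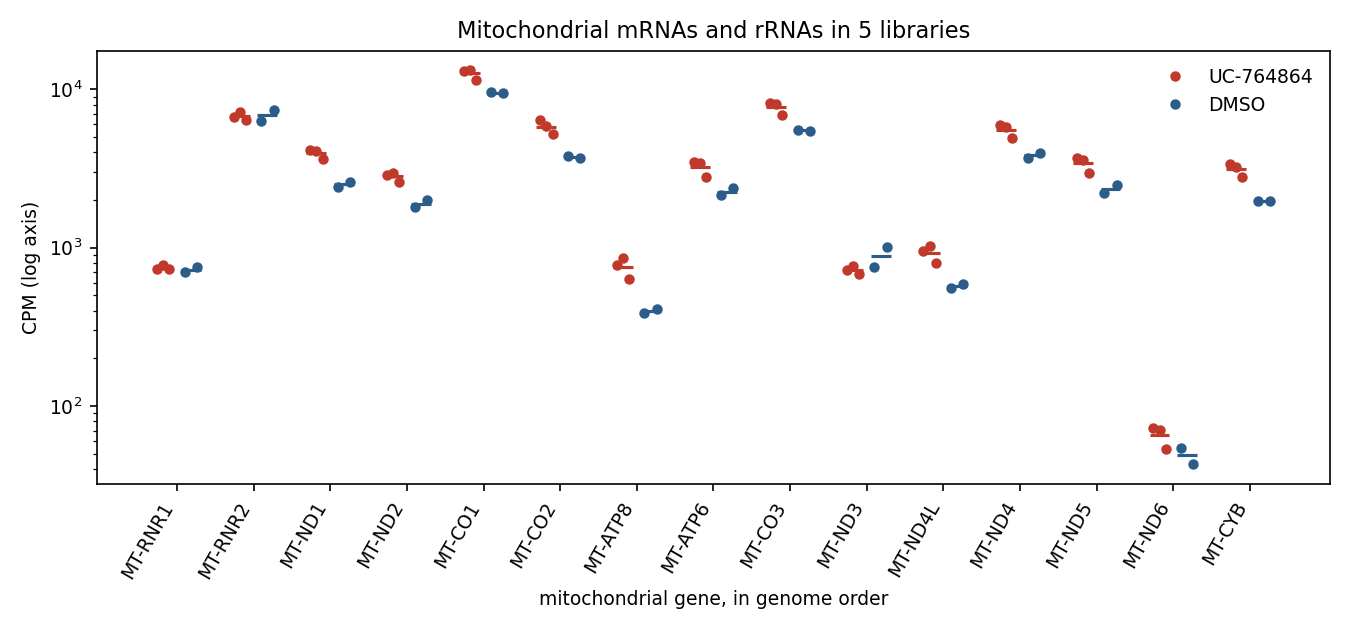
CPM of the 13 mRNAs and 2 rRNAs in genome order on a log axis, one point per library and a line at the mean, UC-764864 left of DMSO. UC-764864 points lie above DMSO points for 11 mRNAs, and the points of MT-RNR1, MT-RNR2, MT-ND3 and MT-ND6 overlap.

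Complex I, the NADH dehydrogenase that feeds electrons into the chain, takes 7 of its subunits from this genome, and 5 of their mRNAs rose. MT-ND1 stood at 4129, 4071 and 3634 CPM after UC-764864, against 2423 and 2596 CPM after DMSO. This was a 1.57-fold rise, with no overlap (log2 fold change 0.65 ± 0.10 SE, edgeR adjusted p = 0.00158). MT-ND2 had 2890, 2962 and 2589 CPM after UC-764864, against 1793 and 2004 CPM after DMSO (0.57 ± 0.10, adjusted p = 0.00386). MT-ND4 had 5962, 5782 and 4910 CPM after UC-764864, against 3682 and 3963 CPM after DMSO. MT-ND4 codes for one of the proton-pumping membrane subunits, as MT-ND2 and MT-ND5 do, and its log2 fold change was 0.54 ± 0.10 (adjusted p = 0.00499). MT-ND4L, which shares an mRNA with MT-ND4, had 956, 1024 and 796 CPM after UC-764864, against 557 and 592 CPM after DMSO (0.69 ± 0.12, adjusted p = 0.00358). MT-ND5 had 3682, 3598 and 2978 CPM after UC-764864, against 2207 and 2487 CPM after DMSO (0.54 ± 0.11, adjusted p = 0.007). In each of these 5 genes the lowest UC-764864 library was UDI0053 and the lowest DMSO library was UDI0054.

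MT-ND3 and MT-ND6 were the complex I mRNAs that did not pass. MT-ND3, which codes for a small membrane subunit, had 719.9, 765 and 686 CPM after UC-764864, against 749.8 and 1009 CPM after DMSO. Its groups overlapped, and it was the only mRNA with a negative log2 fold change, −0.28 ± 0.13 (95% interval −0.56 to −0.0021, unadjusted p = 0.0486, edgeR adjusted p = 0.128). It passed as lower without UDI0054 (−0.49, adjusted p = 0.0109) and with a term for UDI0052 and UDI0056 (−0.22, adjusted p = 0.0206), and stood at 0.0002 with the GC trend of each library removed (adjusted p = 0.999). Of every 1000 counts of the 13 mRNAs, MT-ND3 took 13.4, 14.5 and 15.1 after UC-764864, against 21.5 and 28.0 after DMSO. The groups did not overlap on this scale, which measures MT-ND3 against the other mRNAs of the same library (exact permutation p = 0.2). MT-ND6 is the only mRNA gene on the GENCODE minus strand, and its mRNA is known to lack a poly(A) tail in human cells. It had 72.7, 70.7 and 53.4 CPM after UC-764864, against 54.5 and 42.9 CPM after DMSO, with UDI0053 below UDI0054. Its log2 fold change was 0.43 ± 0.16 (95% interval 0.07 to 0.78, adjusted p = 0.0745). It passed as higher with no filter (adjusted p = 0.0311), with DESeq2 (0.0436), without UDI0054 (0.0203), with a term for UDI0052 and UDI0056 (0.0101) and with the GC trend removed (0.00469). The labels describe the paired reads as single-stranded, and the sources used here do not say whether counting used the strand. If it did not, reads of MT-ND6 and reads antisense to it cannot be told apart.

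MT-CYB, the catalytic cytochrome b of complex III, had 3396, 3209 and 2808 CPM after UC-764864, against 1958 and 1974 CPM after DMSO. Its 1.6-fold rise had an edgeR adjusted p of 0.00181 (log2 fold change 0.67 ± 0.11). Complex IV, cytochrome c oxidase, takes its catalytic core from MT-CO1, MT-CO2 and MT-CO3. MT-CO1, which holds the oxygen-reducing site, had 13124, 13147 and 11461.5 CPM after UC-764864, against 9614 and 9448 CPM after DMSO. This was the highest count of any member and the smallest of the called mRNA rises, at 0.40 ± 0.09 (adjusted p = 0.00988). The MT-CO1 call was lost without UDI0056 (0.37, adjusted p = 0.0575). MT-CO2, the subunit that accepts electrons from cytochrome c, had 6358, 5832 and 5189 CPM after UC-764864, against 3780 and 3706 CPM after DMSO (0.63 ± 0.10, adjusted p = 0.00229). MT-CO3 had 8210, 8018 and 6927 CPM after UC-764864, against 5565 and 5459 CPM after DMSO (0.49 ± 0.10, adjusted p = 0.00575). In all 3 genes of complex IV the groups were separate.

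MT-ATP8 and MT-ATP6 code for membrane subunits of the ATP synthase and lie on a single mRNA. MT-ATP8 had 778, 857 and 638 CPM after UC-764864, against 388 and 409.7 CPM after DMSO. This was 1.90-fold, the largest rise of the mRNAs, with a log2 fold change of 0.93 ± 0.13 (edgeR adjusted p = 0.00126). MT-ATP6, the proton-channel subunit, had 3467, 3401 and 2789.6 CPM after UC-764864, against 2137 and 2387 CPM after DMSO (0.51 ± 0.11, adjusted p = 0.00956). For every 100 counts of MT-ATP6 there were 22.4, 25.2 and 22.9 counts of MT-ATP8 after UC-764864, against 18.2 and 17.2 after DMSO, with no overlap (exact permutation p = 0.2). For the other shared mRNA there were 16.03, 17.7 and 16.2 counts of MT-ND4L for every 100 of MT-ND4 after UC-764864, against 15.1 and 14.9 after DMSO. MT-ATP8 is the shortest mRNA gene, and the stretch it shares with MT-ATP6 in the sequence above is 46 bases, whereas reads were 75 bases long. The part of read assignment in the MT-ATP8 value was not tested.

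**Figure D3:**
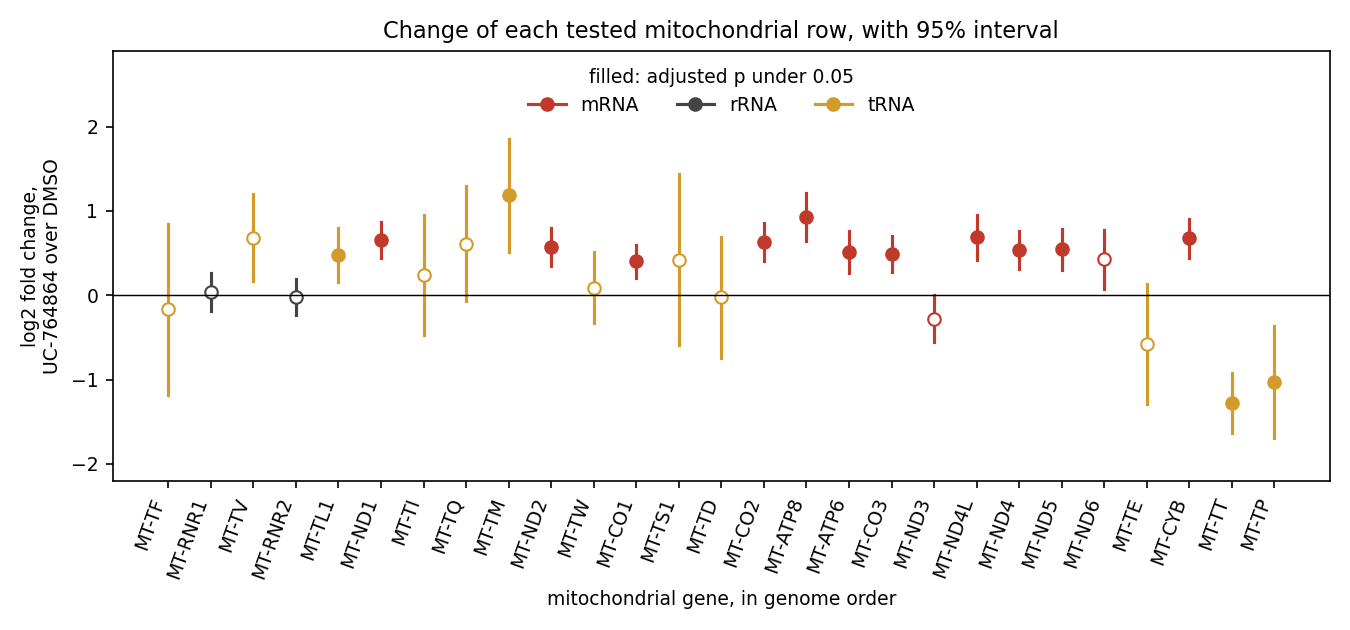
Log2 fold change of UC-764864 over DMSO for the 27 tested mitochondrial rows in genome order, with 95% intervals, filled points having an adjusted p under 0.05. The 11 mRNAs called lie between 0.40 and 0.93, the rRNAs at 0.04 and −0.02, and MT-TT and MT-TP at −1.28 and −1.03.

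The groups did not overlap for the 11 mRNAs called, so a rise in every pair of libraries across the treatments was given. Only the sizes inside pairs matched by their share of GC-rich genes add to this. UDI0052 over UDI0056 gave log2 differences of 0.48 to 1.06 for them, and the mean of UDI0051 and UDI0053 over UDI0054 gave 0.35 to 0.87. Apart from MT-CO1, each of these mRNAs kept its call in all 13 other settings, with adjusted p from 2.74e-12 to 0.0311. With library sizes and scaling taken from the rows other than MT-, the median of the 13 mRNAs was 0.57.

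The rRNAs form the small and large subunit of the mitochondrial ribosome. MT-RNR1, the small subunit rRNA, had 735, 776 and 728 CPM after UC-764864, against 698 and 758 CPM after DMSO. Its log2 fold change was 0.04 ± 0.10, with a 95% interval of −0.19 to 0.26 (edgeR adjusted p = 0.82), and it was −0.02 with library size as the only scaling. MT-RNR2, the large subunit rRNA, had 6656, 7225 and 6441 CPM after UC-764864, against 6317 and 7442 CPM after DMSO. Its log2 fold change of −0.02 ± 0.10 had an interval of −0.24 to 0.19 (adjusted p = 0.891), and it was 0.0025 with scaling from the rows other than MT-. The groups overlapped for both genes. The 95% intervals of the mRNAs called began at 0.20 for MT-CO1, inside the interval of MT-RNR1, and at 0.26 to 0.64 for the other 10. That of MT-ATP6 began at 0.2603, where that of MT-RNR1 ended at 0.2601. All these intervals come from the same libraries, and differences between single mRNAs and rRNAs were not tested.

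Set per kilobase of gene, to take gene length into account, levels of the 13 mRNAs and 2 rRNAs covered a wide range. The counts come from poly(A) RNA, so differences between genes also depend on how well each RNA was captured, which was not tested. MT-ND6, as said above, is known to lack a tail. MT-CO3 was highest, at 9845 ± 883 CPM per kb after UC-764864 and 7031 ± 96.1 after DMSO, and MT-ND6 lowest of these 15, at 125 ± 20.15 and 92.8 ± 15.6. After UC-764864, the mean ± SD ranges of MT-CO2 (8470.0 ± 856) and MT-CO1 (8156 ± 627) overlapped. So did those of MT-RNR2 (4345 ± 259.7), MT-ND1 (4127 ± 283) and MT-ND4 (4029 ± 408). After DMSO, those of MT-ND4 (2774 ± 144.5), MT-ND1 (2625 ± 128) and MT-ND3 (2542 ± 530.2) overlapped as well. These SDs include shifts that genes of a library share. Within libraries, MT-CO2 was above MT-CO1 in each UC-764864 library, by the least in UDI0052 (8527 and 8526 CPM per kb). MT-ND4 was above MT-ND1 in both DMSO libraries. These differences were not tested. MT-ND3 stood 12th of 15 after UC-764864 and 8th after DMSO. MT-ATP8 stood 8th after UC-764864 and 10th after DMSO, at 3660.0 ± 535 and 1927 ± 73.5 CPM per kb. MT-RNR1 had 783 ± 27.4 and 763 ± 44.6 CPM per kb, below its partner MT-RNR2 by more than 5-fold in every library.

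**Figure D4:**
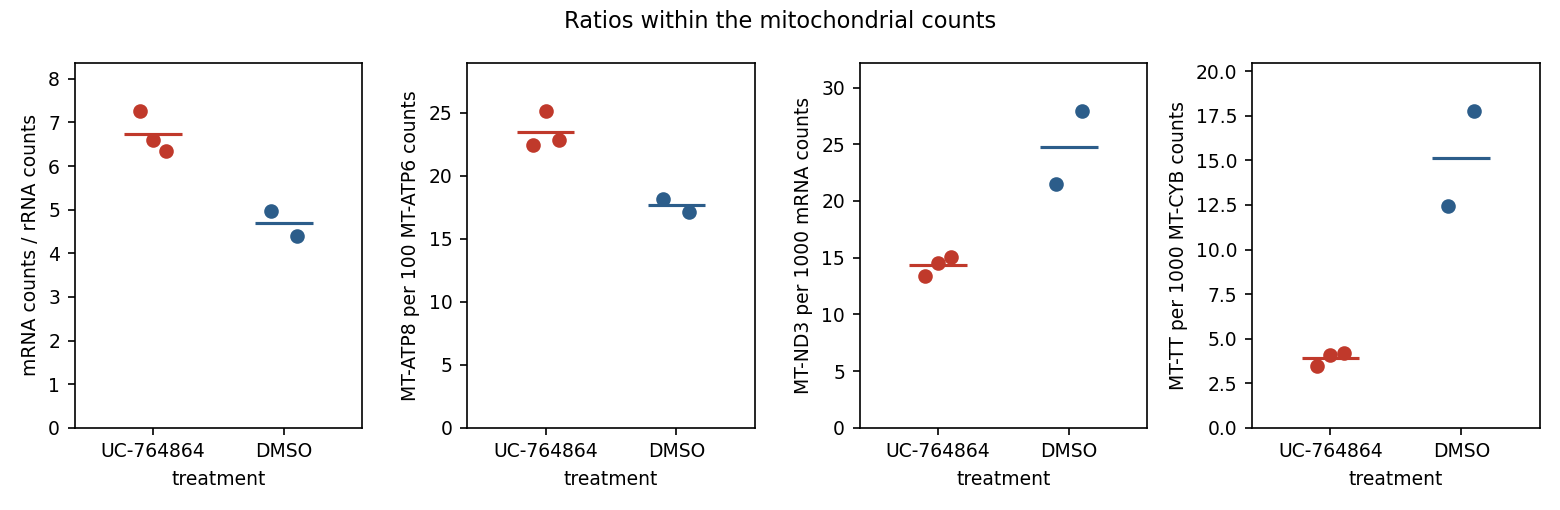
Ratios between mitochondrial counts within each library, one point per library and a line at the mean, UC-764864 left and DMSO right. MT-TT per 1000 MT-CYB counts lies between 3.49 and 4.22 in the UC-764864 libraries, below the 12.4 and 17.8 of the DMSO libraries, and the mRNA to rRNA and MT-ATP8 to MT-ATP6 ratios are higher after UC-764864.

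Rows of tRNA genes held few counts and moved in both directions. The genes are 59 to 75 bases long and reads were 75 bases, so a full read in such a row nearly always reaches into a neighbouring gene. A change in such a row of poly(A) counts may therefore not be a change of the finished tRNA. The part of longer RNAs in these rows was not tested. Together the 22 rows held 0.00486% ± 0.000395 of counts after UC-764864 and 0.00607% ± 0.000755 after DMSO. MT-TT, the threonine tRNA gene next to MT-CYB, had 290, 218 and 251 counts, or 11.8, 13.03 and 11.9 CPM, after UC-764864. It had 597 and 576 counts, or 24.3 and 35.1 CPM, after DMSO. It was 2.42-fold lower after UC-764864, with no overlap, and its log2 fold change of −1.28 ± 0.17 had the smallest p of any member (edgeR adjusted p = 7.42e-04). The call held in all 13 other settings, from −1.53 to −0.82. Its neighbour MT-CYB rose, and for every 1000 counts of MT-CYB there were 3.49, 4.06 and 4.22 counts of MT-TT after UC-764864, against 12.4 and 17.8 after DMSO. MT-TP, the proline tRNA gene, lies 2 bases beyond MT-TT on the GENCODE minus strand. It had 17, 21 and 23 counts after UC-764864, against 56 and 28 after DMSO, and a log2 fold change of −1.03 ± 0.30 (adjusted p = 0.0292). Its call was lost with DESeq2 (adjusted p = 0.114), without UDI0051 (0.125), without UDI0053 (0.0677), without UDI0054 (0.175) and with the GC trend removed (0.379). If counting did not use the strand, reads of MT-TP and reads running on from MT-TT cannot be told apart.

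Of the tRNA rows that rose, MT-TL1, a leucine tRNA gene between MT-RNR2 and MT-ND1, had 20.1, 17.9 and 16.3 CPM after UC-764864, against 12.8 and 13.1 CPM after DMSO. Its log2 fold change was 0.48 ± 0.15 (edgeR adjusted p = 0.0336). That call was lost with library size as the only scaling (adjusted p = 0.0512) and without UDI0051 (0.178), UDI0053 (0.0589), UDI0054 (0.0906) or UDI0056 (0.118). MT-TM, the methionine tRNA gene before MT-ND2, had 46, 32 and 35 counts after UC-764864, against 24 and 9 after DMSO (1.18 ± 0.31, adjusted p = 0.0182). The groups were apart once scaled to CPM. Its call was lost with DESeq2 (adjusted p = 0.0515), without UDI0056 (0.151) and without UDI0052 and UDI0056 (0.0715).
The valine tRNA gene MT-TV, between the rRNA genes, had 6.57, 5.44 and 3.78 CPM after UC-764864, against 3.38 and 3.17 CPM after DMSO, and missed the threshold (0.68 ± 0.24, adjusted p = 0.054). It passed as higher with no filter (0.0122), without UDI0053 (0.029), without UDI0052 and UDI0056 (0.0405), with a term for these libraries (0.017) and with the GC trend removed (0.00679). The other 7 tested tRNA rows were not called and had wide intervals. MT-TQ, for glutamine, stood at 0.61 ± 0.31 and MT-TS1, for serine, at 0.42 ± 0.47. MT-TI, for isoleucine, and MT-TW, for tryptophan, stood at 0.24 ± 0.33 and 0.09 ± 0.19. MT-TD, for aspartate, stood at −0.02 ± 0.33, MT-TF, for phenylalanine, at −0.17 ± 0.47 and MT-TE, for glutamate, at −0.58 ± 0.33. MT-TI, MT-TW and MT-TD passed as higher with the GC trend removed (1.24, 0.70 and 1.23), a setting that moves AT-rich rows most, and their GC content is 23.5% to 35.3%. The 10 tRNA rows that failed the filter held 0 to 15 counts in any library, and MT-TN and MT-TR held 0 in all 5. A count of 0 allows 0.12 to 0.186 CPM, taking 3 counts as the floor.

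Nuclear chromosomes carry copies of mitochondrial genes, which can take reads from the originals. Of 188 such rows, 6 passed the filter, and 1 was higher and 0 lower. MTATP6P1, a copy of MT-ATP6 with 98.5% identity over 681 bases, had 551 ± 58.8 CPM after UC-764864 (n = 3) and 396 ± 37.8 CPM after DMSO (n = 2), a log2 fold change of 0.48 ± 0.12 (edgeR adjusted p = 0.0166). MTND2P28, a copy of MT-ND2 with 98.4% identity, had 133 ± 4.52 and 122 ± 19.1 CPM (0.13 ± 0.13, adjusted p = 0.491). Because UDI0055 holds these rows, they could also be compared in 6 libraries. There MTATP6P1 stood at 0.07 ± 0.24 (adjusted p = 0.869) and its call was lost, since UDI0055 had 879 CPM against 399.9 and 456 CPM in the other DMSO libraries. MTRNR2L12 and MTRNR2L8, copies of MT-RNR2, and MTND4P12, a copy of MT-ND4, held 8 to 56 counts per library and were not called. Reads that map equally well to a copy and its original can be split between them, so the values of MT-ATP6 and MT-ND2 carry that uncertainty. MTATP6P1 held 14959, 9200 and 10436 counts after UC-764864, beside 84923, 56909 and 59034 counts of MT-ATP6, and 9049 and 6925 after DMSO, beside 52408 and 39133.

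**Figure D5:**
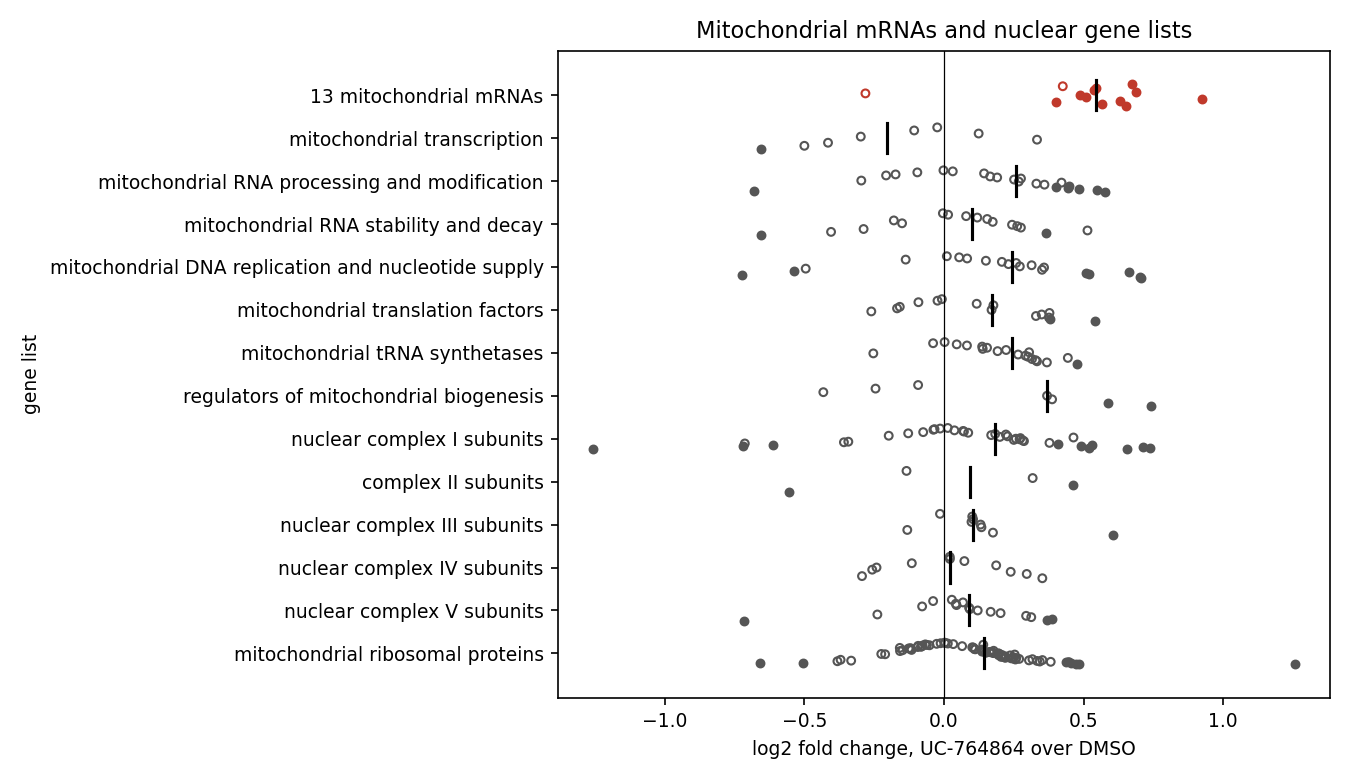
Log2 fold change of UC-764864 over DMSO for the 13 mitochondrial mRNAs and for nuclear genes of 13 lists, one point per gene, filled where the adjusted p is under 0.05, with a bar at each median. The mitochondrial mRNAs have a median of 0.54 and the nuclear lists medians from −0.20 to 0.37.

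Nuclear genes that make, process and use these transcripts changed in both directions. Over 13 lists, 33 of 261 tested genes were higher (12.6%) and 12 lower (4.60%), beside 9.88% and 13.9% of all tested rows. In a fit of all 6 libraries on the rows that UDI0055 holds, 14 of 255 were higher (5.49%) and 8 lower (3.14%), beside 5.11% and 8.13% of all rows there. Of 8 genes of mitochondrial transcription, 0 rose and 1 fell, with a median of −0.20. TFAM, which packages the mitochondrial genome and activates its promoters, had 81.4 ± 12.5 CPM after UC-764864 (n = 3) and 128 ± 25.2 CPM after DMSO (n = 2). It fell by 0.65 on the log2 scale (edgeR adjusted p = 0.0114, and 0.0241 in 6 libraries). TFAM was highest in UDI0052 after UC-764864 (95.9 CPM) and in UDI0056 after DMSO (146 CPM). For TFAM and the other nuclear genes of these lists, values with the GC trend removed are not given here. POLRMT, the RNA polymerase, stood at 0.33 ± 0.17, TEFM, its elongation factor, at −0.41 ± 0.18 and MTERF, a termination factor, at −0.50 ± 0.17, and none of these 3 passed.

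Among 22 genes of RNA processing and modification, 6 rose and 1 fell (median 0.26). ELAC2, which cuts tRNA 3′ ends from the precursor, rose by 0.58 ± 0.12 (adjusted p = 0.00736), and TRMT10C, a subunit of mitochondrial RNase P, which cuts their 5′ ends, fell by 0.68 ± 0.17 (adjusted p = 0.016). In 6 libraries the fall of TRMT10C passed (adjusted p = 0.0295) and the rise of ELAC2 did not (0.0514). CDK5RAP1, a tRNA-modifying enzyme, and RNMTL1, an rRNA methyltransferase, rose by 0.55 and 0.48, and neither passed in 6 libraries (adjusted p = 0.0555 and 0.162). Of 16 genes of RNA stability and decay, 1 rose and 1 fell (median 0.10). FASTKD1 fell by 0.65 ± 0.14 (adjusted p = 0.00857), and SUPV3L1, the helicase of the decay machinery, rose by 0.36 ± 0.12 (adjusted p = 0.0495, and 0.0772 in 6 libraries). FASTKD1 belongs to a family of mitochondrial RNA-binding proteins that shape the stability of single transcripts.

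Genome maintenance and its control held several rises. Of 20 genes of mitochondrial DNA replication and nucleotide supply, 5 rose and 2 fell (median 0.24). In 6 libraries 3 of 19 rose and 1 fell. C10orf2, the helicase Twinkle, had 64.1 ± 4.06 CPM after UC-764864, against 39.2 ± 1.73 CPM after DMSO, and RNASEH1, which removes RNA primers, had 37.7 ± 3.05 and 23.2 ± 1.89 CPM (adjusted p = 0.0036 and 0.0053). LIG3, the mitochondrial DNA ligase, rose by 0.52 and RRM2B, a subunit of ribonucleotide reductase, fell by 0.72, and all 4 passed in 6 libraries (adjusted p from 0.0187 to 0.0403). Of 7 tested regulators of mitochondrial biogenesis, 2 rose, the coactivator genes PPRC1 (0.74 ± 0.14, adjusted p = 0.0039) and PPARGC1B (0.59 ± 0.14, adjusted p = 0.0106), both also in 6 libraries (0.0303 and 0.0162). NRF1, a transcription factor for nuclear respiratory genes, stood at 0.39 ± 0.14 and ESRRA, an orphan receptor that works with these coactivators, at 0.37 ± 0.16, and neither passed.

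In translation, 2 of 15 factors, 1 of 20 tRNA synthetases and 5 of 75 ribosomal proteins rose, and 0, 0 and 2 fell. The elongation factor gene TUFM rose by 0.54 ± 0.13 (adjusted p = 0.0111), the insertase gene OXA1L by 0.38 ± 0.12 (adjusted p = 0.0359) and the leucine synthetase gene LARS2 by 0.48 ± 0.12 (adjusted p = 0.0167). None of these 3 passed in 6 libraries (adjusted p = 0.0667, 0.0956 and 0.0506). MRPS5 and MRPL16, proteins of the small and large ribosomal subunit, rose by 0.48 and 0.47 and passed in both fits (adjusted p = 0.0162 and 0.0358 in 6 libraries).

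Among nuclear subunits of the respiratory complexes, a minority passed the test. Complex I had 7 of 37 nuclear subunit genes higher and 3 lower (median 0.18), beside 5 of 7 mitochondrial ones higher. NDUFB10 and NDUFB9, accessory subunits, rose by 0.65 and 0.52 (adjusted p = 0.00462 and 0.00978). NDUFS6, another accessory subunit, rose by 0.74 (adjusted p = 0.0107, and 0.079 in 6 libraries), a value inside the 0.40 to 0.93 of the mitochondrial mRNAs called. NDUFC2 had 7.97 ± 0.800 CPM after UC-764864, against 19.0 ± 1.61 CPM after DMSO (−1.26 ± 0.15, adjusted p = 4.69e-04), a value that is uncertain because the locus also holds a readthrough gene. Complex III had 1 of 9 higher and 0 lower (median 0.10), the one being UQCR10 at 0.60 ± 0.12 (adjusted p = 0.00637), beside MT-CYB. Complex IV had 0 of 11 called by edgeR, 3 of them with an unadjusted p under 0.05, and 0 of 10 in 6 libraries (median 0.02), beside 3 of 3 mitochondrial genes higher. COX6B1, COX7C, COX4I1 and COX5A came closest, at 0.35, −0.29, 0.30 and 0.24. Complex V had 2 of 17 higher and 1 lower (median 0.09), beside both mitochondrial genes higher. Its alpha subunit gene ATP5A1 rose by 0.37 (adjusted p = 0.0238, and 0.0901 in 6 libraries), and USMG5, a small membrane subunit, fell by 0.71 (adjusted p = 0.00454). Complex II, which takes no subunit from the mitochondrial genome, had 1 of 4 higher and 1 lower, with SDHA, the flavoprotein, at 0.46 ± 0.12 and SDHD, a membrane anchor, at −0.55 ± 0.12 (adjusted p = 0.0198 and 0.00957). In 6 libraries SDHA did not pass (adjusted p = 0.104) and SDHD did (0.0273). The difference between mitochondrial and nuclear genes of a complex was not tested.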

How the data were processed

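The table deposited by the authors holds raw counts, whole numbers with no normalization, for 6 libraries. The submitters' processing notes name featureCounts 1.5.2, HISAT2 2.0.5, FastQC 0.11.7 and GRCh37, with no roles. Treatments of the columns were read from a second deposited table, which has no replicate numbers. The annotation release, the strand setting and the treatment of reads in overlaps or with several matches are not stated there. UDI0055, 1 column, was left out because its mitochondrial rows are missing.

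The other 5 libraries were fitted with edgeR 4.0.16 in R 4.3.3, using filterByExpr, TMM factors (0.98 to 1.028), estimateDisp and the quasi-likelihood F test on treatment alone. The Benjamini-Hochberg adjustment ran over all 14186 rows, with 0.05 as the threshold. Intervals and floors of shares cover counting error only. CPM uses TMM-scaled library sizes, and values are mean ± SD or log2 fold change ± SE. SE is the size of the log2 fold change over the square root of F. Alternatives included DESeq2 1.42.0, other scalings, no filter, libraries left out and a GC correction chosen after seeing the data. Gene lengths, strands, GC content and sequences came from GENCODE 29. A chi-square of counts between libraries ranged from 4.40, for UDI0051 and UDI0053, to 78.8 per degree of freedom. Libraries thus differed by more than counting error. This cannot tell separate cultures from repeat preparations of one RNA. The test was also tried on simulated counts. These held no GC trend and no shift between libraries, so that trial cannot show how the test handles either. All 13 mRNAs, both rRNAs and all tested tRNAs are named, with up to 4 genes per list in order of p and the 5 nuclear copies with the most counts. Members and lists were chosen with earlier results of these data known.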

Additional observations from a re-analysis of the deposited data

Results flagged for a closer look

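DMSO library UDI0055, whose mitochondrial rows are missing, had the highest levels of the nuclear copies MTATP6P1 and MTND2P28, in a column that the mitochondrial comparison does not use. MTATP6P1 had 879.4 CPM in UDI0055, against 399.9 and 456 CPM in the other DMSO libraries and 549 to 674 CPM in the UC-764864 libraries. MTND2P28 had 271.4 CPM in UDI0055, against 117 and 146 CPM in the other DMSO libraries and 143.5 to 149.7 CPM in the UC-764864 libraries. All 188 rows of nuclear copies summed to 28297 counts in UDI0055, or 1154 CPM over the rows that every library holds. This compares with 536 and 623 CPM in UDI0054 and UDI0056 and 683 to 803 CPM after UC-764864. Of the counts in UDI0055, MTATP6P1 held 21497 and MTND2P28 6635, and 166 of the 188 rows held 0 in every library.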

How the results depend on the processing

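No paired analysis was possible because the columns carry no replicate number. Over all rows, 339 to 1939 were higher and 927 to 2557 lower with a library left out. Without UDI0052 and UDI0056, 2471 were higher, with a term for them 3242 higher and 3328 lower, and with the GC trend removed 3413 higher. Of mitochondrial rows, 10 to 13 were higher and 1 or 2 lower with a library left out, and 1 was lower with DESeq2, as under the GC correction. In the pathway lists, 14 genes were higher in 6 libraries and 19 lower with library size as the only scaling. With a library left out, the mitochondrial share was 1.19 to 1.57 percentage points higher after UC-764864 and the median of the mRNAs was 0.49 to 0.62. Among member values in 13 settings, 302 kept sign and side of the threshold, 14 lost their call and 14 gained one with the same sign. The 18 that changed sign were not called before. Among these, only MT-TD with the GC trend removed gained a call, as higher (edgeR adjusted p = 0.00227). With a library left out, MT-TF ranged from −0.434 to 0.174, MT-TI from −0.0677 to 0.459, MT-RNR1 from −0.0297 to 0.084, MT-RNR2 from −0.144 to 0.0864 and MT-TD from −0.363 to 0.219. MT-RNR1 stood at −0.0165 with library size only. With scaling from the other rows, MT-RNR2 stood at 0.0025 and MT-TD at 0.0009. MT-RNR2 stood at 0.0529 without UDI0052 and UDI0056, and with a term for them at 0.0113, where MT-TD stood at 0.0616. With the GC trend removed, MT-TF stood at 0.0404, MT-RNR2 at 0.0986, MT-TD at 1.23 and MT-ND3 at 0.0002. Without UDI0054 or UDI0056 a lone DMSO library is assumed to vary like the others. The causes were not tested.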

Other observations

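MT-RNR2 held 9.05, 9.30 and 8.85 counts for each count of MT-RNR1 after UC-764864, against 9.06 and 9.82 after DMSO, and the groups overlapped (exact permutation p = 0.4). MT-ND6, on the other strand, held 1.974, 1.965 and 1.795 counts for every 100 of its neighbour MT-ND5 after UC-764864, against 2.47 and 1.73 after DMSO, with the DMSO libraries at both ends of the range (exact permutation p = 0.8). MT-TP held 58.6, 96.3 and 91.6 counts for every 1000 of MT-TT after UC-764864, against 93.8 and 48.6 after DMSO, again with overlap (exact permutation p = 0.6). Among the tRNA rows too low to test, chosen after its values were seen, MT-TA, for alanine, held 4, 2 and 4 counts after UC-764864 and 14 and 5 after DMSO.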
